A study of Homo sapiens with 2 samples.

Results

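Genes of the transcription factors that specify and maintain hepatocyte identity were examined in RNA-seq data of Huh7 cells, a human hepatocellular carcinoma cell line. The 8 genes, HNF4A, FOXA1, FOXA2, FOXA3, CEBPA, CEBPB, ONECUT1 and NR5A2, were taken by symbol from a fixed list of names, and all 8 were found among the 61541 genes of the deposited table. Both conditions were transfected Huh7 cells: Huh7-NC received a negative control siRNA, and Huh7-si received an siRNA against BRF2, which encodes a subunit of an RNA polymerase III initiation factor. With 1 library in each of the 2 conditions, no difference below has a replicate check. The libraries held 22852648 and 22089016 estimated reads on genes. The target gene, BRF2, had 1280.52 reads (56 CPM, reads scaled to the library total) with control siRNA and 363.72 (16.5 CPM) with BRF2 siRNA, so its level fell by 70.6%. In a bulk library, fewer cells of a type and less RNA per cell cannot be told apart.

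Liver identity rests on a small circuit of factors that bind each other's regulatory regions as well as those of secreted and metabolic genes. FOXA1, FOXA2 and FOXA3 are forkhead proteins that bind compacted chromatin and open liver enhancers. HNF4A and NR5A2 (also called LRH-1) are nuclear receptors, the first controlling lipoprotein, clotting factor and drug metabolism genes and the other bile acid and cholesterol genes. CEBPA and CEBPB are basic leucine zipper proteins, CEBPA being tied to differentiation and growth arrest and CEBPB to the acute phase response and regeneration. ONECUT1 (HNF6) is a cut homeodomain protein of liver and bile duct development.

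The liver label was checked first. All 6 hepatocyte markers examined (ALB, AFP, APOA1, APOB, TF and FGB) had reads in both libraries, and the lowest was 76.62 TPM in Huh7-NC and 178.85 TPM in Huh7-si. TPM is the deposited level of a gene, scaled for transcript length and library size. Of markers of other cell types, KRT19 (178.29 and 175.53 TPM) and SOX9 (49.88 and 69.52 TPM), both bile duct genes, were clearly present, while KRT7 had 0 and 3 reads. The 3 endothelial markers summed to 0.96 and 1.6 TPM, the 3 blood markers to 13.9 and 15.2 TPM, and the 3 stellate cell or fibroblast markers to 4.92 and 9.31 TPM. Within these lists the reads were uneven. Of the endothelial genes, CDH5 had 2 and 0 reads, VWF 1 and 3 and PECAM1 60 and 63. Of the blood genes, PTPRC had 5 and 1 reads, CD14 112 and 94 and CD68 235.37 and 244.36. Of the stellate cell or fibroblast genes, ACTA2 had 2 and 7 reads, PDGFRB 158 and 218 and COL1A1 76 and 229. The part of these marker differences in the results below was not tested.

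The start sites of the genes are shown because the members differed in them. RefSeq promoter windows (GRCh38.p14, 250 bases before to 50 bases after a start) were matched for 7 of the 8 genes. FOXA2 had no window, so its promoter was not searched. The windows numbered 10, since HNF4A, NR5A2 and CEBPB have more than 1 listed start. The TATA box TATAAA lay on the sense strand, 30 or 29 bases before the start, in CEBPA, FOXA3 and the downstream start of CEBPB, and in no other of the 10 windows at that place. Between 40 and 20 bases before a start, 2.3% of all 35116 promoter windows held it, and in any place and on either strand 11.5% did. The TATA box was added to the search after the changes of the genes were known. The 250 bases before the start are printed 5′ to 3′ on the strand of the gene, with each motif match in capitals. They are CEBPA (chr19:33302535-33302784, minus strand), FOXA3 (chr19:45864076-45864325, plus strand) and CEBPB (chr20:50190580-50190829, plus strand), which carry TATAAA, and FOXA1 (chr14:37595250-37595499, minus strand) and the downstream start of NR5A2 (chr1:200042341-200042590, plus strand), which carry a FOXA motif.
CEBPA: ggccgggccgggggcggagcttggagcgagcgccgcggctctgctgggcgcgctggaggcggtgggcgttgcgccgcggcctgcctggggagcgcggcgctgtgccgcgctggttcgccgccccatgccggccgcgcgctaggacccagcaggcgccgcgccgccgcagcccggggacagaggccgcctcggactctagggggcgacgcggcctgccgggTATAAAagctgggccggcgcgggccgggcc
FOXA3: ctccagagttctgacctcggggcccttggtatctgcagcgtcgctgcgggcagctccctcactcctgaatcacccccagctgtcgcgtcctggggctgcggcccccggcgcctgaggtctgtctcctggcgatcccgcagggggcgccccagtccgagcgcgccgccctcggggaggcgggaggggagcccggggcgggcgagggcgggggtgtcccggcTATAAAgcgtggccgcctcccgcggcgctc
CEBPB: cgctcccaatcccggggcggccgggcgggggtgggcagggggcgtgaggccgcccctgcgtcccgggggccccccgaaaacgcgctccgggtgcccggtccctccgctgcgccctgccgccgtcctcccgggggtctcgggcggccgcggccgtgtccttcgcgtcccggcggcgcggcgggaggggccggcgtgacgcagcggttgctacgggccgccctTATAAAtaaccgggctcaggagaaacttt
FOXA1: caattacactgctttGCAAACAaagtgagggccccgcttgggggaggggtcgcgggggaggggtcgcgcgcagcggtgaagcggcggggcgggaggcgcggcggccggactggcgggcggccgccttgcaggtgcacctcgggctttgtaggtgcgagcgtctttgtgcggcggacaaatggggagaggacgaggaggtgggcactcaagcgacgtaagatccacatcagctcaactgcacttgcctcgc
NR5A2: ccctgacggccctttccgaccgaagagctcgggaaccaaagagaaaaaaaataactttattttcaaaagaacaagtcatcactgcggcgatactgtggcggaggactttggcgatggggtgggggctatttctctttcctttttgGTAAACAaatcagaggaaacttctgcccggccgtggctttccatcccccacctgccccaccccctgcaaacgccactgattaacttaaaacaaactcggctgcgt

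These windows differ in composition as well. The CEBPA stretch is 81.2% G and C with 41 CpG dinucleotides, and FOXA3 and the downstream CEBPB start have 75.2% and 77.6%, against a median of 58% over all promoter windows. ONECUT1 (76.8%) and the upstream CEBPB start (75.6%), with no TATAAA match, are about as rich, FOXA1 has 67.2%, and the HNF4A starts have 58.4% and 58%. The upstream NR5A2 start has 36% and 0 CpG, the lowest of the 10. Motifs of the factors themselves were searched on both strands. The FOXA motif TGTTTGC lay in the FOXA1 window (antisense, from base -235) and TGTTTAC in the NR5A2 window (antisense, from base -105), motifs held by 3.89% and 3.42% of all promoters. The ONECUT motif ATCAAT lay at both HNF4A starts, on the sense strand from base -33 at the upstream start and antisense from base -200 at the downstream one, and in 6.26% of all promoters. The ONECUT motif ATCGAT (0.763% of promoters), the HNF4 motif CAAAGTCCA (0.384%), the C/EBP motif TTGCNNAA (10.5%) and the NR5A2 motif CAAGGTCA (1.28%) were in none of the 10 windows. A match is a run of letters and not a site of binding.

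All 8 genes were expressed in both libraries, over a wide range of levels. CEBPA was the highest at 285.55 TPM in Huh7-NC and 207.37 TPM in Huh7-si, above 98% and 97.4% of the genes with a TPM over 0 in either library. HNF4A followed at 96.63 and 106.79 TPM, and FOXA3 at 70.45 and 57.19 TPM. These 3 kept the first places in both libraries, each with a 95% counting interval apart from that of the next. FOXA2 (32.53 and 46.14 TPM), CEBPB (28.31 and 24.79 TPM) and FOXA1 (27.71 and 43.64 TPM) formed a middle group. CEBPB and FOXA1 could not be told apart in Huh7-NC (intervals 26.5 to 30.2 and 26.4 to 29.1 TPM), nor FOXA2 and FOXA1 in Huh7-si (44 to 48.4 and 41.8 to 45.6 TPM), nor CEBPB and NR5A2 in Huh7-si (22.9 to 26.8 and 21.4 to 23.9 TPM). NR5A2 (14.44 and 22.64 TPM) and ONECUT1 (7.07 and 8.71 TPM) were the lowest. The highest level was 40.4 times the lowest in Huh7-NC and 23.8 times in Huh7-si, and CEBPA made up 50.7% and 40.1% of the summed TPM of the 8 genes (563 and 517 TPM).

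**Figure D1:**
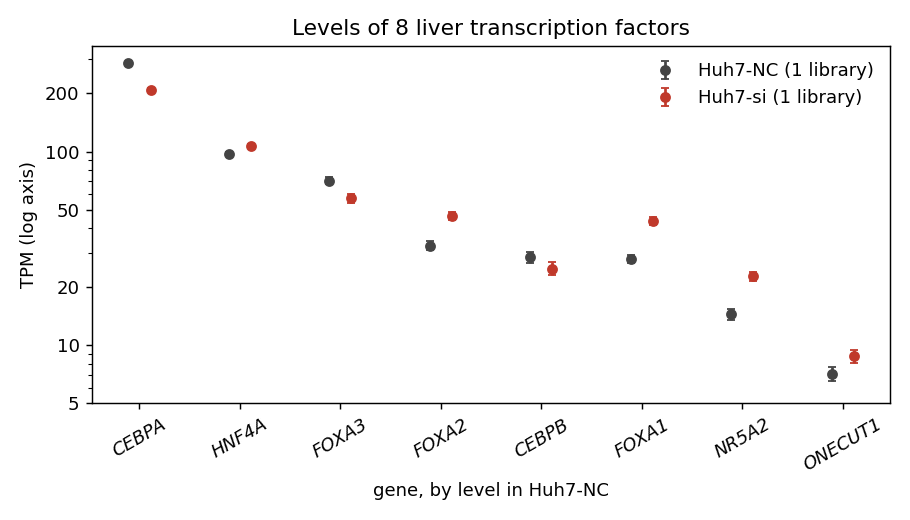
TPM of each gene (log axis) in the Huh7-NC library (grey) and the Huh7-si library (red), 1 library each, with 95% intervals from the exact Poisson interval of the reads, which cover counting error only. CEBPA, HNF4A and FOXA3 were the highest in both libraries, and the libraries differed in opposite directions for FOXA3 (70.45 and 57.19 TPM) and FOXA1 (27.71 and 43.64 TPM).

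No member passed the 2-fold threshold between Huh7-si and Huh7-NC in either direction. Of 17921 genes that reached 10 reads over both libraries, 15.2% were at least 2-fold higher in Huh7-si and 1.81% at least 2-fold lower. At a 1.5-fold threshold on reads scaled to the library total, CEBPA was the 1 member called, lower, as were 5.81% of all those genes. Fold changes are ratios of CPM, with exact 95% Clopper-Pearson intervals that cover counting error alone. By these intervals 3 members (FOXA1, FOXA2 and NR5A2) were higher, 4 (CEBPA, FOXA3, CEBPB and HNF4A) were lower and ONECUT1 could not be told from 0. The interval lay above 0 for 41.2% of all genes with at least 10 reads and below 0 for 19.9%. The median log2 fold change of the 8 was 0.02, against 0.21 over those genes and 0.13 over the 12392 genes with a symbol and at least 100 reads.

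Both C/EBP genes were lower in Huh7-si. CEBPA (ENSG00000245848, chr19:33299934-33302564, 1 exon) counted 11600.72 reads in the control library and 7249.04 in the BRF2 siRNA library, for a log2 fold change of -0.63 (-0.67 to -0.59). This was the largest difference of the 8 by total reads, with levels of 508 and 328 CPM. CEBPB (ENSG00000172216, chr20:50190734-50192689, 1 exon) had 885.58 and 662.63 reads, a log2 fold change of -0.37 (-0.52 to -0.22). CEBPA reads were 13.1 times CEBPB reads in Huh7-NC and 10.9 times in Huh7-si. That ratio within a library does not depend on how libraries are scaled, and it fell by 0.26 on the log2 scale (interval -0.41 to -0.11, from the exact conditional odds ratio).

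The 3 FOXA genes did not move together. FOXA3 (ENSG00000170608, chr19:45863989-45873797) counted 2320 reads in the control library and 1601 in the BRF2 siRNA library, for a log2 fold change of -0.49 (-0.58 to -0.39). FOXA1 (ENSG00000129514, chr14:37589984-37596059) had 1596.44 and 2074 reads, a log2 fold change of 0.43 (0.33 to 0.52). FOXA2 (ENSG00000125798, chr20:22581005-22585455) had 1411.56 and 1707 reads, a log2 fold change of 0.32 (0.22 to 0.43). FOXA3 was thus lower and its paralogs higher in Huh7-si, and each of the 3 kept its direction under every alternative run. The ratio of FOXA1 to FOXA3 reads went from 0.688 to 1.3, a log2 change of 0.91 (0.78 to 1.05), and that of FOXA2 to FOXA3 from 0.608 to 1.07, a log2 change of 0.81 (0.67 to 0.95). FOXA1 and FOXA2 were not told apart from each other in their change (0.10, interval -0.04 to 0.24). On the TPM scale FOXA3 made up 53.9% of the FOXA total in Huh7-NC and 38.9% in Huh7-si, while the total was 131 and 147 TPM. The longest run of bases shared by FOXA transcripts (the longest of each gene in GENCODE release 29) was 48 bases, between FOXA1 and FOXA2, and 29 bases for either with FOXA3.

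The nuclear receptors differed from each other. HNF4A (ENSG00000101076, chr20:44355700-44434596) counted 6766 reads in the control library and 6288 in the BRF2 siRNA library, for a log2 fold change of -0.06 (-0.11 to -0.01), and the TPM columns gave it the other sign (0.14). NR5A2 (ENSG00000116833, chr1:200027602-200177424) had 960 and 1262.88 reads, a log2 fold change of 0.44 (0.32 to 0.57), not told apart from that of FOXA1. HNF4A reads were 7.05 times NR5A2 reads in Huh7-NC and 4.98 times in Huh7-si, a log2 change of -0.50 (-0.63 to -0.37). HNF4A also changed against CEBPA, from 0.583 to 0.867 HNF4A reads per CEBPA read, a log2 change of 0.57 (0.51 to 0.64).

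ONECUT1 (ENSG00000169856, chr15:52756989-52791078) had 642.06 and 663.56 reads, a log2 fold change of 0.10 (-0.06 to 0.26), so a difference was not detectable at this depth. It was below 0 with TMM (-0.13) or median-of-ratios (-0.11) scaling and 0.30 by the TPM columns.

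**Figure D2:**
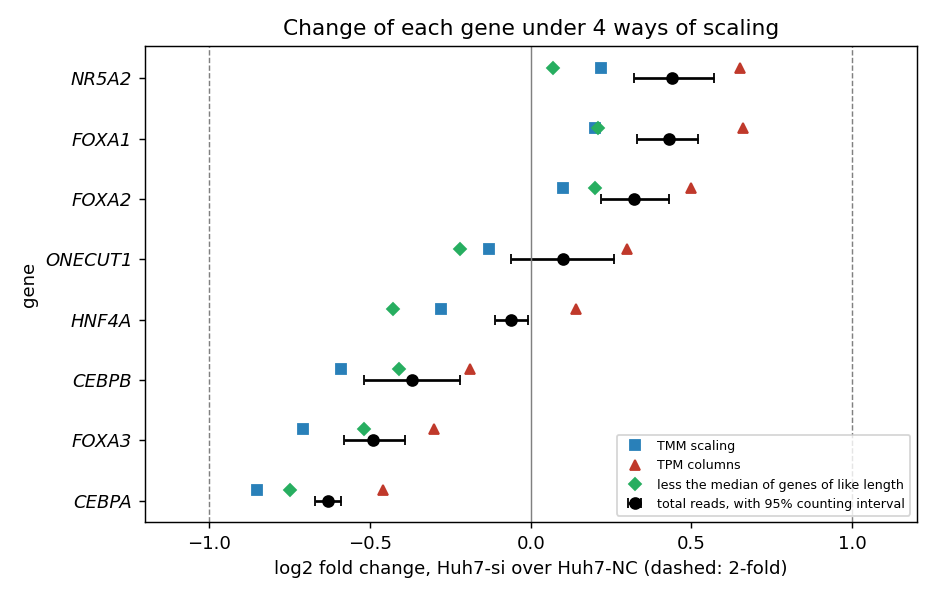
log2 fold change of each gene (Huh7-si over Huh7-NC) by total reads with its 95% counting interval (black), with TMM scaling (blue squares), by the TPM columns (red triangles) and after subtracting the median of like-length genes (green diamonds), with dashed lines at 2-fold. No marker reaches a dashed line, CEBPA, FOXA3 and CEBPB lie left of 0 and FOXA2, FOXA1 and NR5A2 right of 0 on all 4 scales, and HNF4A and ONECUT1 fall on both sides.

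The size of each change depended on the scale. TMM scaling moved every log2 fold change by -0.22, so that all genes of at least 10 reads had a median of -0.01, CEBPA stood at -0.85 and NR5A2 at 0.22. The TPM columns placed CEBPA at -0.46 and NR5A2 at 0.65. The ratio of reads to TPM, which follows the transcript length used for a gene, changed between the libraries by at most 0.03 on the log2 scale for any member relative to the median of genes with at least 100 reads in each library. The TPM columns therefore shifted the 8 genes by nearly one amount. HNF4A, with 9 annotated transcripts of 4 to 11 exons, showed no such change (relative ratio 1.55 in both libraries), although a gene level cannot show which of its starts was used.

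The log2 fold change was higher for longer genes across the table, and the lengths of the members were set beside their changes. Of 20 length bins, genes of 703 to 962 bases had the lowest median log2 fold change (-0.17) and the longest bin the highest (0.67). CEBPB (1839 bases) and FOXA3 (1923 bases) are the shortest members, and NR5A2 (4969 bases) and HNF4A (4739 bases) the longest. Relative to genes of like length, CEBPA stood at -0.75, FOXA3 at -0.52, HNF4A at -0.43, CEBPB at -0.41 and ONECUT1 at -0.22, while FOXA1 stood at 0.21, FOXA2 at 0.20 and NR5A2 at 0.07. On this scale FOXA1 and FOXA2 stood above NR5A2, and HNF4A below CEBPB, unlike by total reads. Like-length medians were 0.37 for HNF4A and NR5A2, 0.32 for ONECUT1, 0.22 for FOXA1, 0.12 for FOXA2 and CEBPA and 0.04 for FOXA3 and CEBPB. Those of HNF4A and CEBPA differed by 0.25, beside the log2 change of 0.57 in the ratio of their reads. The part of length in the members' changes was not tested.

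**Figure D3:**
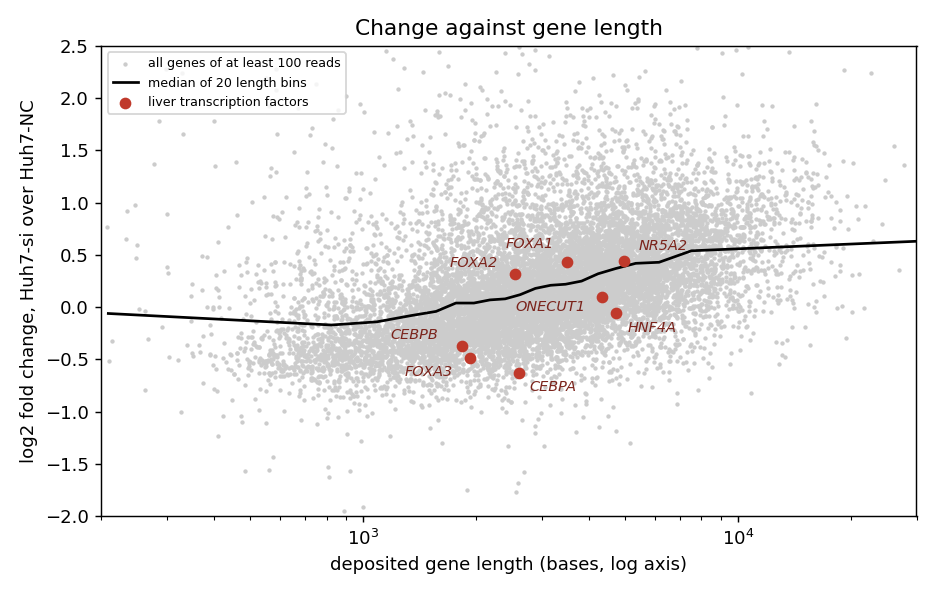
log2 fold change (Huh7-si over Huh7-NC) against deposited gene length (log axis) for genes of at least 100 reads (grey), the median of 20 length bins of genes of at least 10 reads (black line) and the 8 factors (red), with a few genes outside the plotted range. FOXA1, FOXA2 and NR5A2 lie above the line and CEBPA, FOXA3, HNF4A, CEBPB and ONECUT1 below it.

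The TATA box at CEBPA, FOXA3 and CEBPB was set beside the changes of all genes. HNF4A, lower by its interval but not by the TPM columns (0.14), held none in either window. The 299 genes that reached 10 reads and held TATAAA between 40 and 20 bases before a start had a median log2 fold change of 0.14 (median length 2263 bases), and over the 11738 genes with a listed start and none it was 0.16 (3044 bases). The part of the TATA box in the members' changes was not tested.

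Genes around the 8 loci were then listed, since the strand used in counting is not stated and reads of overlapping genes may be given to either. GENCODE release 29 (GRCh38) places 19 genes within 10 kb of a member, of which 8 had at least 10 reads over both libraries and 9 had none in either. At CEBPA, the antisense gene ENSG00000267580 (chr19:33299934-33301168) counted 396.59 control reads and 47.9 with BRF2 siRNA, for a log2 fold change of -3.00 (-3.46 to -2.56). Its 659 exonic bases all lie over the CEBPA 3′ UTR, and its reads numbered 3.42 per 100 CEBPA reads with control siRNA and 0.661 with BRF2 siRNA. A second antisense gene there, ENSG00000267727, had 27.69 and 35.06 reads (0.39, interval -0.39 to 1.14) and lies over the coding sequence for 420 of its 482 bases. Adding the reads of both to those of CEBPA gave a log2 fold change of -0.66 in place of -0.63. CEBPA-DT, which starts 293 bases from CEBPA in the opposite direction, had 250 and 262 reads (0.12, interval -0.14 to 0.37) and thus did not share the lower value of CEBPA.

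At the FOXA loci, LINC00261, the long noncoding neighbour downstream of FOXA2, had 2123 and 2140 reads, a log2 fold change of 0.06 (-0.03 to 0.15), against 0.32 for FOXA2. TTC6, which overlaps FOXA1 by 213 bases on the other strand, had 36 and 81 reads, a log2 fold change of 1.22 (0.64 to 1.83), and 0.99 with TMM scaling. Beside FOXA3, SYMPK had 3896 and 4484.9 reads (0.25, interval 0.19 to 0.31) and IRF2BP1 995 and 769 reads (-0.32, interval -0.46 to -0.19). CEBPB-AS1 had 8.42 and 10.38 reads, and its interval (-1.12 to 1.91) holds no direction. HNF4A-AS1 had 5 and 3 reads. ONECUT1 had no annotated neighbour within 10 kb, and no neighbour of NR5A2 had a read in either library. A protein-coding gene that overlaps FOXA2 by 3257 bases on the same strand is not among the deposited genes. The counts of HNF4A and FOXA3 were whole numbers in both libraries, while those of the other 6 were fractional in at least 1 library.

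The wider network of liver transcription factors held values on both sides of 0. Of 27 listed genes 26 had at least 10 reads, and by total reads none was 2-fold higher or lower. By the TPM columns 4 were at least 2-fold higher (MLXIPL, PROX1, TBX3 and ONECUT3, the last with 4 and 7 reads), as were 20.5% of all genes, and ZBTB20 was 2-fold lower (1.8% of all genes were). By the counting intervals 10 of the 26 were higher and 9 lower, beside 41.2% and 19.9% of all genes of at least 10 reads. Their median log2 fold change was 0.05, with a range of -0.62 to 0.95. The top of that range was ZBTB20, with only 20.34 and 38.07 reads, whose TPM of 3.77 and 1.34 gave the opposite sign (-1.49). The 3 of highest level were HHEX, a homeobox gene of the liver bud, at 81.82 and 96.42 TPM (log2 fold change 0.06, interval -0.02 to 0.14), NR2F1, an orphan nuclear receptor, at 51.02 and 84.9 TPM (0.58, interval 0.49 to 0.67) and NR1H4, the bile acid receptor FXR, at 65.95 and 48.56 TPM (-0.57, interval -0.66 to -0.47).

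The median log2 fold change of the coregulators was 0.68. All 14 listed had at least 10 reads, and none was 2-fold lower. At least 2-fold higher were 2, or 14.3%, near the 15.2% of all genes. By the counting intervals 13 of the 14 were higher and 1 lower, beside 41.2% and 19.9% of all genes of at least 10 reads. PPARGC1A (PGC-1α), a coactivator of HNF4A in gluconeogenesis, had 46 and 136 reads (1.61, interval 1.12 to 2.13), 1.39 with TMM scaling and 0.96 by its TPM of 0.76 and 1.48, the last under the threshold. EP300, a histone acetyltransferase, had 1437 and 2954.04 reads (2.13-fold, a log2 fold change of 1.09), 0.86 with TMM scaling, under the threshold, and 1.31 by TPM. By the TPM columns the genes past 2-fold were 4, EP300, CREBBP (1.08), NCOA2 (1.27) and PPARGC1B (1.30), and with TMM scaling 1, PPARGC1A, against 20.5% and 11% of all genes. The 3 of highest level were CITED2 (0.33), DDIT3 (0.70), whose product dimerizes with C/EBP proteins, and the corepressor gene NCOR1 (0.54). The coregulator genes are long (median 8049 bases, against 3055 for the 8 factors), and relative to genes of like length their median was 0.24.

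Genes of hepatocyte products, many bound by these factors, had a median log2 fold change of -0.11 by total reads and of 0.09 by the TPM columns, so its sign depended on the scale. All genes of at least 10 reads had medians of 0.21 and 0.39, above that of the list on both scales. Of 24 listed 22 had at least 10 reads. By the counting intervals 5 of the 22 were higher and 13 lower, beside 41.2% and 19.9% of all genes of at least 10 reads. By total reads 1 (4.5%) was at least 2-fold higher, against 15.2% of all genes, and none was 2-fold lower, against 1.81%. That gene was APOB, the main protein of very low density lipoprotein, with 20889 and 41399 reads (1.04, interval 1.01 to 1.06), 0.81 with TMM scaling, under the threshold, and 1.22 by TPM. APOA1, the main protein of high density lipoprotein, was 2-fold lower with TMM (-1.05) and with median-of-ratios (-1.04) scaling. With TMM 3.04% of all genes were. By total reads APOA1 stood at -0.83 and by TPM at -0.66, both under the threshold. PCK1, a gluconeogenic enzyme of 46 and 36 reads, was 2-fold lower by TPM alone (-1.01), where 1.8% of all genes were. The 3 of highest level were APOA2 (-0.49, interval -0.51 to -0.46), ALB (-0.11, interval -0.12 to -0.10) and AMBP (-0.25, interval -0.27 to -0.23). The median length of the list was short (1589.5 bases), but APOB has 14121 bases and stood at 0.36 relative to genes of like length. On that scale the median of the list was -0.19, beside -0.32 for the 8 factors and -0.12 for the wider network.

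**Figure D4:**
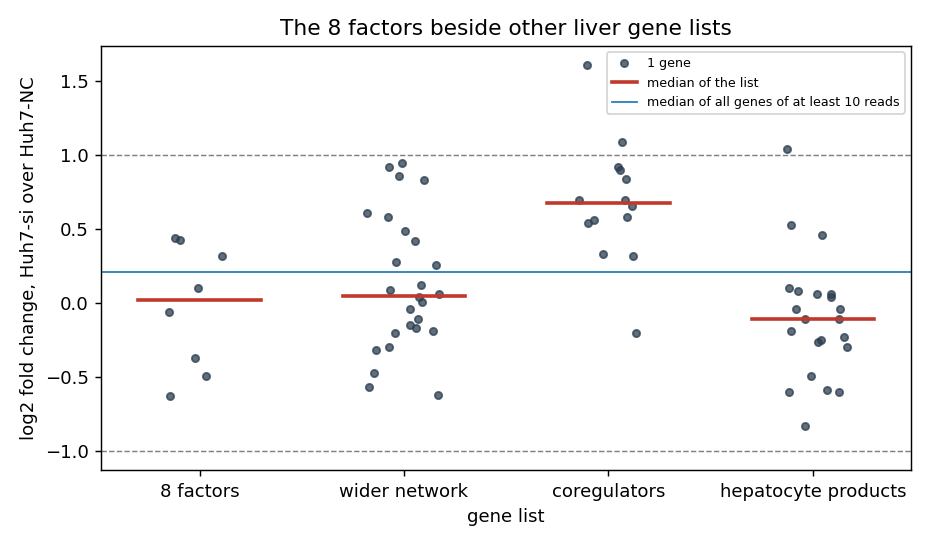
log2 fold change (Huh7-si over Huh7-NC, total reads) of each gene of at least 10 reads in 4 lists, with the median of each list (red bar), the median of all genes of at least 10 reads (blue line, 0.21) and dashed lines at 2-fold. The 8 factors and the wider network lie within the dashed lines, with medians of 0.02 and 0.05, and the coregulators have a median of 0.68.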

How the data were processed

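RNA-seq of Huh7 cells was analyzed, with 1 library for each of 2 conditions. The authors deposited 1 table of 61541 genes that holds, for each library, an estimated count and a TPM, beside a gene length and fold changes and p-values of their own, which were not used. The submitters' processing notes name Bowtie2 2.0.6, TopHat2 2.0.12 and GRCh37. The counting tool, annotation and strand setting are not given in the sources used here. The table has no coordinates. Those given are of GENCODE release 29 (GRCh38), which holds 94.8% of the gene identifiers.

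The samples were grouped by their titles. Log2 fold changes are ratios of CPM (Huh7-si over Huh7-NC), with 95% Clopper-Pearson intervals on counts rounded to whole numbers. A 2-fold difference was the threshold, and no p-value was calculated, because 1 library per condition leaves no spread between replicates and intervals cover counting error only. A count of 0 allows 3 reads, or 0.131 and 0.136 CPM. The members and lists were chosen with earlier results of these data known. The members, list genes past 2-fold, the 3 of highest mean TPM per list and neighbours of at least 10 reads were named. HNF4A-AS1, CEBPB-AS1, the marker genes and list genes past 2-fold on another scale alone were named after their values were seen.

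Alternatives were edgeR's TMM and upper-quartile scaling, DESeq2's median of ratios, the total without the 100 top genes, the TPM columns, pseudocounts of 0.5 reads and 1 CPM, filters of 1 and 100 reads, a 1.5-fold threshold and 20 length bins. Intervals were tried on simulated whole counts with Poisson error, the kind of error they assume. That trial does not cover fractional counts or spread between replicates. A comparison of protein sequences that had been planned was not made, and shared runs of transcript bases were given in its place. Python 3.11.15, NumPy 2.4.6, pandas 2.3.3, SciPy 1.17.1, matplotlib 3.10.9, R 4.3.3, edgeR 4.0.16 and DESeq2 1.42.0 were used.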

Additional observations from a re-analysis of the deposited data

How the results depend on the processing

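With no replicates, a value was counted as moved when it left its counting interval, or for a median the medians of the interval bounds. Of 64 values (8 members under 8 alternatives), 26 stayed within their interval and 38 left it. In 5 the sign changed, in HNF4A by the TPM columns (0.14) and in ONECUT1, whose interval spans 0, with TMM (-0.13), upper-quartile (-0.09) and median-of-ratios (-0.11) scaling and against like-length genes (-0.22). No member passed 2-fold under any alternative. By total reads 1 (CEBPA) was lower past a 1.5-fold threshold, as were 5.81% of all genes. On other scales that threshold was passed by other members, among them FOXA3 (-0.71 with TMM) and, upward by the TPM columns, FOXA1 (0.66) and NR5A2 (0.65). By the TPM columns CEBPA (-0.46) did not pass it. The share of all genes past 1.5-fold on those scales was not counted. All genes of at least 10 reads had a median of -0.01 with TMM and 0.39 by TPM. CEBPA ranged from -0.85 to -0.46, FOXA3 from -0.71 to -0.30, CEBPB from -0.59 to -0.19 and HNF4A from -0.43 to 0.14. FOXA2 ranged from 0.10 to 0.50, FOXA1 from 0.20 to 0.66, NR5A2 from 0.07 to 0.65 and ONECUT1 from -0.22 to 0.30. The shift with scaling follows from its construction, one amount for every gene. For the members, wider network, coregulators and hepatocyte products, the medians were -0.20, -0.17, 0.45 and -0.33 with TMM, -0.19, -0.16, 0.47 and -0.31 with median of ratios, and 0.22, 0.20, 0.81 and 0.09 by TPM. The hepatocyte products thus changed sign by TPM, and the members and wider network with the other scalings. The sign changes with scaling follow from the shift of every gene by one amount (-0.22 with TMM). The cause of the shift by TPM was not tested. With upper-quartile scaling the members, wider network and hepatocyte products stood at -0.17, -0.14 and -0.29. Relative to genes of like length the members stood at -0.32 and the coregulators at 0.24. CEBPA with the reads of both antisense genes stood at -0.66. That alternative and the list counts on other scales were chosen after seeing the data. Past 2-fold, the wider network had 4 higher and 1 lower by TPM, the coregulators 4 higher by TPM and 1 with TMM, and the hepatocyte products 1 lower on either scale and 0 higher with TMM. The order of the members by level was the same by TPM and by CPM per kb. No paired analysis was possible because each condition has 1 library.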
